A study of Mus musculus with 9 samples.

Results

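The imprinted gene clusters of the mouse were examined in lists of chromatin interactions from embryonic stem cells. The members were 42 imprinted genes, or close neighbours of imprinted genes, chosen by name, and an interaction was counted for a member when 1 of its 2 genomic bins overlapped the gene body or the 5 kb on either side. Members closer than 1 Mb formed a cluster, which gave 17 clusters. The members took part in 265 of 49630 interactions in the CTCF list, 122 of 23630 in the RAD21 list, 124 of 36274 in the untreated H3K27ac list and 65 of 28210 in the H3K27ac list after IAA. At least 1 interaction was listed for 29 members, and none for the other 13.

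The series concerns how the architectural protein CTCF acts on genes with and without chromatin loops. MNase HiChIP, in which micrococcal nuclease cuts crosslinked chromatin, nearby ends are ligated and an antibody then enriches the ligated DNA, was performed in E14 mouse embryonic stem cells cultured with LIF and the inhibitors PD0325901 and CHIR99021. All 9 libraries carried the CTCF AID genotype, an auxin-inducible degron on CTCF, so the untreated libraries carried the tagged protein too. The groups were H3K27ac without IAA (2 libraries), H3K27ac after 12 h of IAA, the auxin that triggers loss of degron-tagged proteins (2 libraries), CTCF without IAA (2 libraries) and RAD21, a cohesin subunit, without IAA (3 libraries). Each group was given as 1 list pooled over its libraries. No value therefore has a replicate error, and no difference can be set against the spread between replicates. Intervals cover counting error only. CTCF protein after IAA was not analysed here, nor were CTCF and RAD21 contacts after IAA.

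Genomic imprinting is the expression of a gene from 1 parental copy, set by DNA methylation laid down in the germ line at imprinting control regions. Many imprinted genes lie in clusters with a long noncoding RNA, and at some control regions CTCF binds the unmethylated copy and separates enhancers from promoters. H19 with Igf2 is the textbook case of such an insulator, and Dlk1 with Meg3 and the Kcnq1 domain are large clusters controlled from a single region. The lists carry no parental allele, so a contact of the maternal copy cannot be told apart from one of the paternal copy. For the labelled cell type, 5 pluripotency genes were counted, Pou5f1, Sox2, Nanog, Klf4 and Esrrb. All had H3K27ac interactions, 309 in the untreated list and 266 after IAA. Markers of other cell types were not counted, so this is no test of the label.

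Some anchors of the strongest CTCF interactions held close matches to the core of the CTCF motif, whose orientation is known to matter for loops. The matches shown belong to the interactions described next. Each line gives 30 bases of the reference genome (mm10) in the 5′ to 3′ direction of the strand named, with the core, which may hold 1 mismatch, in capitals.
Ddc intron, left anchor of Grb10, chr11:11820397-11820426, plus strand: aagtcttcCCACCAGAGGGCACcaaagatt
Grb10 intron, right anchor, chr11:11973597-11973626, minus strand: agggactgCCACCAGGGGTCGGcacagcca
Dlk1 upstream, left anchor of Meg3, chr12:109437899-109437928, plus strand: gagacccgCCGGCAGGGGGCGCagccagct
Meg3 exon bin, right anchor, chr12:109543030-109543059, minus strand: catagagaCCGCTAGGGGGCGCgcggcccg
Cdkn1c anchor 5.0 kb upstream, chr7:143466488-143466517, minus strand: gtctctgaCCACCAGGGGGCAGaatgactc
Cdkn1c anchor 3.0 kb upstream, chr7:143464070-143464099, minus strand: caagtcggCCACCAGGGGGCAGcatgaagc
Slc22a18 exon bin, chr7:143480692-143480721, plus strand: agggagttCCACCAGGGGGCGCtacagtga
Ghrh intron, left anchor of Blcap, chr2:157341710-157341739, plus strand: tcaggcagCCAGAAGGTGGCGCtgttctcc
Blcap, right anchor, chr2:157571701-157571730, minus strand: gcaccataCCGCTAGGTGTCACcacagact
Plg intron next to Slc22a3, chr17:12416401-12416430, plus strand: tcctttggCCACCAGATGGCAGcatatctt
Airn intron, chr17:12810653-12810682, minus strand: aggttataCCACAAGGGGGCACtattgctg
Of 75 CTCF-list anchor bins at members, 33 (44%) held, on either strand, the letters CCNNNAG directly followed by NNGGCNN, the fixed bases of the core, against 49.6% of all 34038 CTCF-list anchor bins and 17.9% of the same bins moved by 10 kb. For the degenerate CTCF core with up to 1 mismatch, which overlaps the first pattern, the count was 27 of 75 (36%), beside shares of 41.7% over all anchors and 5.15% over moved bins. A match is a description of the letters and not a measured binding site. No match to the degenerate core was found in the Kcnq1 bins of the strongest Kcnq1 to Cdkn1c contacts, nor in the Phlda2 bin chr7:143506001-143507000. The strongest CTCF pairs of Commd1, Peg3 and Mest had no such match at either anchor.

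Where both anchors of a CTCF interaction held matches to the degenerate core on 1 strand only, the strands could be compared. This was so for 42 of the 265 interactions, and 29 of them (69.0%, 95% Wilson interval 54.0 to 80.9) had the plus-strand match on the left and the minus-strand match on the right, the arrangement known as convergent. Over the whole list the share was 66.7% of 14017 interactions. The remaining 13 member interactions had both matches on 1 strand, and 0 were divergent, against 340 of the 14017. The Ddc to Grb10, Dlk1-side to Meg3, Ghrh to Blcap and Plg to Airn pairs shown above were all convergent. Other pairs described below were not. The Fignl1 intron and Grb10 both had a minus-strand match, and the Dlk1-side bin and the neighbouring Meg3 bin both a plus-strand match. Of 11 comparable interactions at Grb10, 5 were convergent and 6 had both matches on 1 strand, and at Meg3 1 of 2 was convergent.

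CTCF interactions were unevenly spread over the clusters. The cluster that runs from H19 and Igf2 to Kcnq1 and Phlda2 on chromosome 7 held 94 of the 265, Grb10 held 43, Peg3 with Usp29 and Zim1 39, Commd1 with Zrsr1 20, Gnas 16 and Nnat with Blcap 16. Plagl1 had 11, the Igf2r, Airn and Slc22a3 cluster 10, Dlk1 with Meg3 8, the Ndn, Magel2 and Mkrn3 cluster 6 and Mest with Copg2 2. RAD21 interactions were listed for the same 11 clusters, 46 of 122 in the Kcnq1 cluster and 26 at Grb10. The nearest anchors of the CTCF and RAD21 lists both lay 6.85 kb from Impact, and 19.35 and 20.35 kb from Sgce. Within the 5 kb limit used here, Impact and Sgce thus had H3K27ac interactions only. In 4 clusters the reverse held, with CTCF and RAD21 but no H3K27ac interaction: Gnas, Igf2r with Airn and Slc22a3, Mest with Copg2, and Ndn with Magel2 and Mkrn3. Zdbf2, Peg13, Nap1l5 and the pair Snrpn and Ube3a had no interaction in any list, which shows only that no pair of bins at these genes passed the authors' q-value limit of 0.05. The interactions of members were long, with a median span of 279 kb in the CTCF list and 301 kb in the RAD21 list, where the whole lists had 149 and 123 kb. For H3K27ac the medians were 119 kb without and 50 kb with IAA, against 24 and 22 kb. The untreated H3K27ac median differed by cluster. It was 365 kb at Peg3, 161 kb at Nnat with Blcap, 138 kb at Grb10, 46 kb in the Kcnq1 cluster and 32 kb at Impact. At Plagl1 (17 kb), Commd1 (16 kb), Meg3 (11 kb) and Sgce (8 kb) it lay below that of the whole list.

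**Figure D1:**
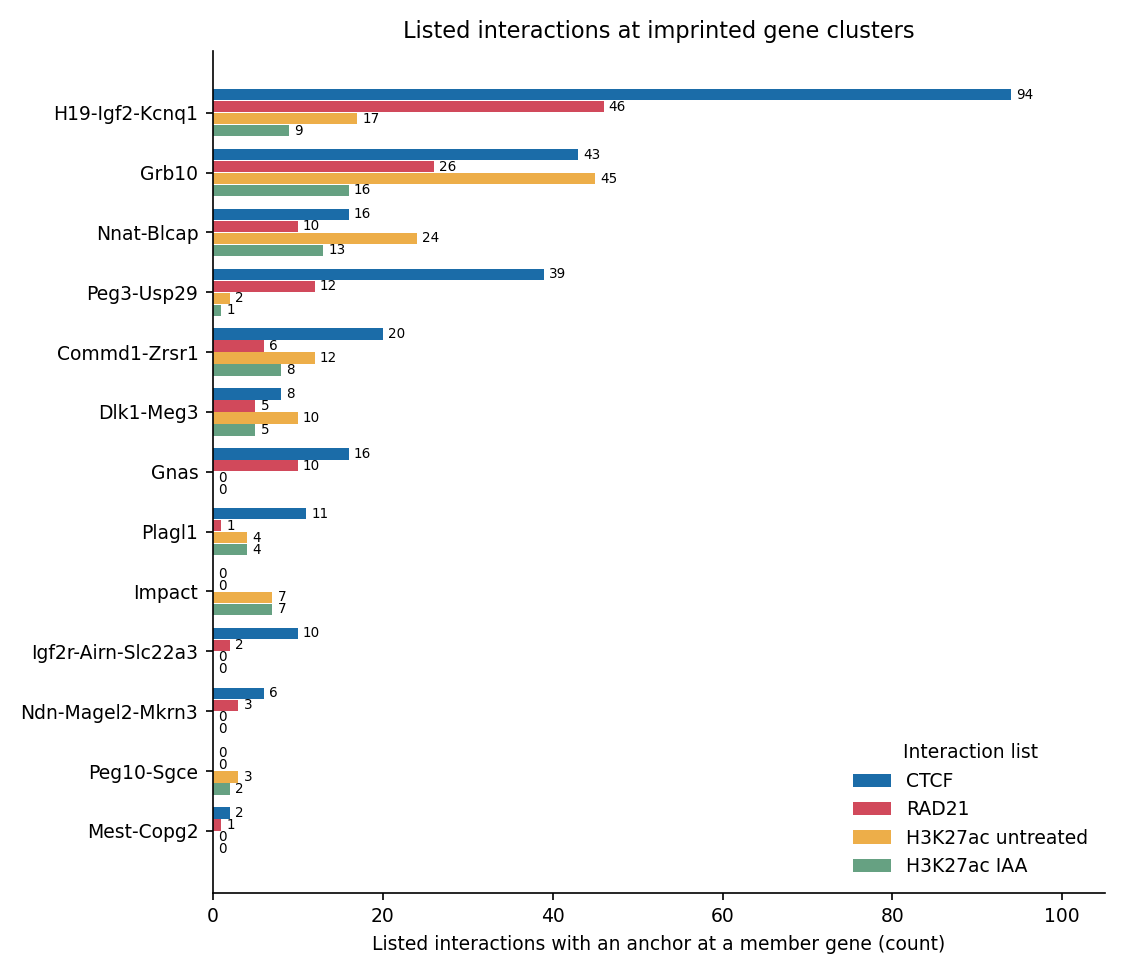
Number of listed interactions with an anchor at a member gene (x axis, count) for the 13 clusters with at least 1, in the CTCF, RAD21, untreated H3K27ac and IAA H3K27ac lists (coloured bars, count printed beside each). The H19-Igf2-Kcnq1 cluster has the most CTCF interactions, 94, and Grb10 the most untreated H3K27ac interactions, 45, against 16 after IAA.

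Of the 122 RAD21 interactions at members, 97 were also in the CTCF list at the same 2 bins, or 79.5% (95% Wilson interval 71.5 to 85.7), where the share over the whole RAD21 list was 72.2%. Read the other way, those 97 were 36.6% of the members' CTCF interactions, against 34.4% over the CTCF list. Contacts summed over the 97 were 2928 in the CTCF list and 2015 in the RAD21 list. Relative to all 17063 interactions common to both lists, whose ratio was set to 0 on the log2 scale, RAD21 over CTCF was 0.12 for the members' sums, while their median pair, at 0.0053, lay near that of the whole set, 0.036. The ratio of sums was 0.41 for the Kcnq1 cluster (median 0.27) and 0.40 for Commd1 (0.34). For Peg3 with Usp29 it was -0.52 (median -0.53), and 1 of the 10 common interactions lay above 0, against 53.0% of all common interactions. Gnas lay at -0.16 (median -0.49) and Grb10 at -0.13 (median -0.06). These ratios set 2 antibodies side by side and were not tested.

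The longest run of contacts between different members was in the Kcnq1 domain, where Kcnq1ot1, a paternally expressed noncoding RNA, lies inside Kcnq1, a potassium channel gene, and maternally expressed Cdkn1c (a cyclin-dependent kinase inhibitor), Slc22a18 (a transporter) and Phlda2 (a restraint on placental growth) lie beyond its end. A Kcnq1 intron at chr7:143154001-143155000 and a bin 5.0 kb upstream of Cdkn1c at chr7:143466001-143467000, 312 kb apart, had 95 contacts in the CTCF list where the authors' model predicted 2.68. The same bins had 134 contacts in the RAD21 list, where 2.51 were predicted. Kcnq1 and Cdkn1c were joined by 16 CTCF and 13 RAD21 interactions in all, with 484 and 441 contacts. This pair of genes thus held the strongest contacts between different members in both lists.

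The Kcnq1 anchor reached past Cdkn1c. Kcnq1 and Phlda2 were joined by 12 CTCF interactions, the strongest with 63 contacts, and by 5 RAD21 interactions, the strongest with 51. For Kcnq1 and Slc22a18 the numbers were 8 and 6, with 51 and 39 contacts in the strongest. The genes at the far end were also joined to each other. Slc22a18 and Phlda2 had 68 CTCF and 40 RAD21 contacts over 26 kb between chr7:143480001-143481000, an exon of Slc22a18, and chr7:143506001-143507000. Cdkn1c and Phlda2 had 58 and 37 contacts over 40 kb. The model predicted more contacts for these 2 short CTCF pairs, 11.5 and 12.0, than for the 312 kb contact, 2.68. Of all member interactions, 47 in the CTCF list (17.7%) and 30 in the RAD21 list (24.6%) joined 2 different members with no member at both ends.

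H3K27ac contacts across the Kcnq1 domain were few and low. In the untreated list, Kcnq1 was joined with Cdkn1c by 3 interactions with 7 to 8 contacts, with Slc22a18 by 2 of 7 contacts and with Phlda2 by 1 of 7, and 1 bin pair was shared by the last 2 genes. After IAA 0 of these 5 pairs were listed, and over the whole list 14.7% of untreated pairs with 6 to 9 contacts were listed again. At the other end of the domain, Tssc4 and Cd81, a tetraspanin gene, shared an anchor at chr7:143068001-143070000 that was joined with Kcnq1 by 1 untreated interaction of 9 contacts and by 3 IAA interactions. The strongest of those had 14 contacts, with chr7:143124001-143126000, and the 3 included 1 of 8 contacts that ended at Kcnq1ot1. Most of these counts lay close to the smallest count listed, 6.

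**Figure D2:**
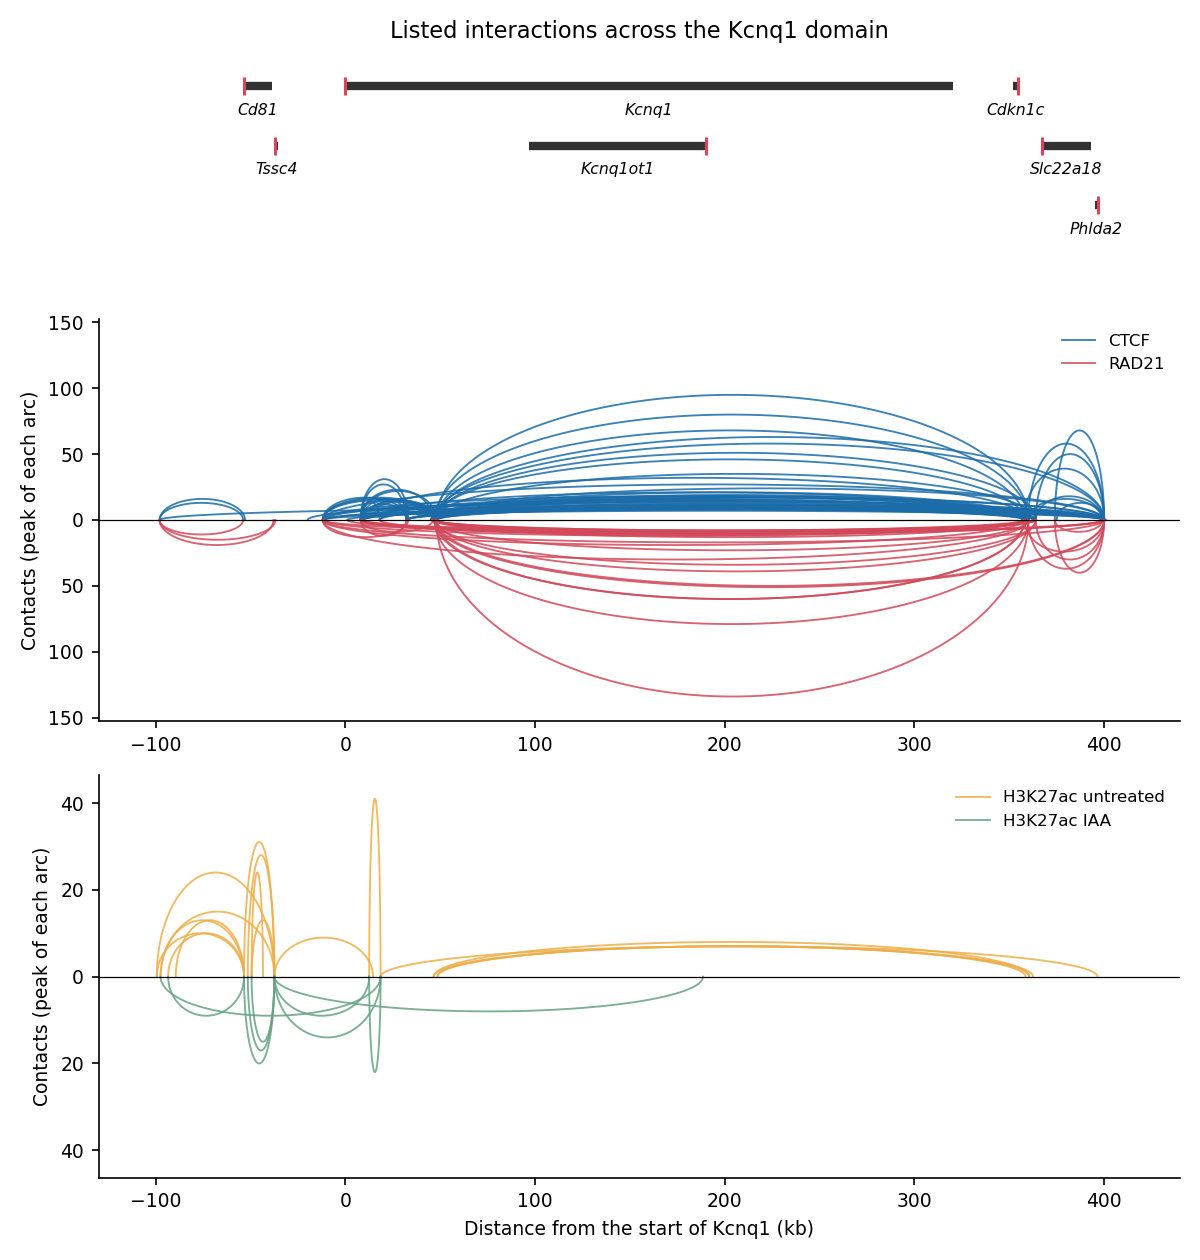
Interactions of members within the window from Cd81 to Phlda2 by distance from the start of Kcnq1 (x axis, kb), with gene bodies and start sites (red ticks) on top. Each arc joins 2 bins and peaks at its contact count (y axis): CTCF up and RAD21 down in the upper panel, H3K27ac untreated up and after IAA down in the lower. The CTCF and RAD21 arcs from inside Kcnq1 to Cdkn1c peak at 95 and 134 contacts, the H3K27ac arcs of 7 to 8 contacts that reach past the end of Kcnq1 appear only above the line, and the arc of 8 contacts to Kcnq1ot1 only below it.

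The shared H3K27ac interactions of this cluster, those at the same 2 bins in both lists, numbered 5 and lay at Cd81, at Tssc4 and inside Kcnq1. Cd81 at chr7:143052001-143054000 and the Tssc4 start had 31 contacts without IAA and 20 after it, log2 -0.60 (95% counting interval -1.49 to 0.25) after scaling by the totals over all shared interactions. A pair inside Kcnq1, chr7:143118001-143120000 with chr7:143124001-143126000, had 41 and 22 contacts, log2 -0.87 (-1.69 to -0.09). Its exact binomial test gave p = 0.023 before and 0.944 after Benjamini-Hochberg adjustment over all 15551 shared interactions. Summed over the 5 shared interactions of the cluster, contacts were 123 and 83, log2 -0.54 (-0.96 to -0.12), and 4 of the 5 were lower. The coverage of its 6 bins found in both lists lay at -0.22 (median, log2, relative to the median of all such bins). The part of coverage in this result was not tested.

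H19, a maternally expressed noncoding RNA, and Igf2, a paternally expressed growth factor gene, had 0 listed interactions with each other or with any other bin in the 4 lists. The nearest anchors, in the CTCF and the RAD21 list alike, lay 36.5 kb from H19 and 5.19 kb from Igf2. For Igf2 that is just outside the 5 kb limit, so its count of 0 depends on this limit. The absence shows only that no pair of bins at these genes passed the q-value limit. Ins2, an insulin gene whose annotated body spans 64.7 kb here, had 10 CTCF and 4 RAD21 interactions. The insulin exons are known to fill only a small part of such a length, so bins elsewhere in it are counted for Ins2 by the rule alone. The strongest in the CTCF list, with 16 contacts each, joined chr7:142714001-142715000 with an intron of Mrpl23, 176 kb away on the far side of H19 and Igf2, and chr7:142737001-142738000 with an intron of Th. Bins on both sides of the H19 and Igf2 genes were thus joined over them. Ascl2, a transcription factor of the trophoblast, had 1 CTCF interaction of 15 contacts.

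Dlk1, a paternally expressed gene for a membrane protein, and Meg3, a maternally expressed noncoding RNA, were joined by 1 CTCF interaction of 10 contacts, from the Dlk1 start at chr12:109453001-109454000 to chr12:109543001-109544000 inside Meg3, and by 0 RAD21 interactions. The strongest contact of the cluster passed over Dlk1. It joined the same Meg3 bin with chr12:109437001-109438000, 14.8 kb upstream of Dlk1 and 106 kb from its partner, with 46 CTCF contacts (4.94 predicted) and 34 RAD21 contacts (3.19 predicted). The neighbouring Meg3 bin, chr12:109542001-109543000, had 30 and 18 contacts with the same partner. An intron of Gm34081, 43 kb from the Meg3 bin, had 30 and 13. All 5 RAD21 interactions of the cluster were also in the CTCF list. Rtl1 and Rian had no listed interaction, and Mirg had 1 H3K27ac interaction of 8 contacts.

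The H3K27ac interactions of Meg3 were mostly short. The 3 that were shared between the lists joined bins around its start, chr12:109538001-109544000, with upstream bins at chr12:109528001-109534000, 6 to 14 kb away. Their contacts were 21 without and 16 with IAA, 14 and 14, and 14 and 15, with log2 ratios of -0.36, 0.03 and 0.13, so 1 of the 3 was lower. Of the 10 untreated interactions of the cluster, 3 were listed again at the same bins, against 42.9% over the whole list. For 8 of the 10 an IAA pair lay within 1 bin on either side, against 65.7%. The cluster had 5 IAA interactions, so the same IAA pair can count for several untreated pairs here. The promoter of Meg3 and those of Nnat and Blcap, whose H3K27ac contacts are described next, are shown from RefSeq (mm10), 250 bases before to 50 after the start, on the gene's own strand, because imprinted promoters are known for methylation at CpG. Capitals mark each CpG.
Meg3, chr12:109540746-109541045, plus strand: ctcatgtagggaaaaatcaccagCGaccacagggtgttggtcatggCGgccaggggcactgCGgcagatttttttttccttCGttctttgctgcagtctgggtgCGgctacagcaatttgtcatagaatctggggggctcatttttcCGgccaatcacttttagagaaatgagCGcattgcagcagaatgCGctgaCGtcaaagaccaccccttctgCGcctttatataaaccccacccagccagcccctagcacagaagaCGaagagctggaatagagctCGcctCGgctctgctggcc
Nnat, chr2:157559828-157560127, plus strand: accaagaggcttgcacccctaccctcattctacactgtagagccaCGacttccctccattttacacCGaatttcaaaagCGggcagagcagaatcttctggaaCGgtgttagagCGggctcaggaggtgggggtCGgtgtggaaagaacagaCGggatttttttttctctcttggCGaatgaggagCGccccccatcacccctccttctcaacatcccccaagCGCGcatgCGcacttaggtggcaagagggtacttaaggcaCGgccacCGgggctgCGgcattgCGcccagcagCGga
Blcap, chr2:157566312-157566611, minus strand: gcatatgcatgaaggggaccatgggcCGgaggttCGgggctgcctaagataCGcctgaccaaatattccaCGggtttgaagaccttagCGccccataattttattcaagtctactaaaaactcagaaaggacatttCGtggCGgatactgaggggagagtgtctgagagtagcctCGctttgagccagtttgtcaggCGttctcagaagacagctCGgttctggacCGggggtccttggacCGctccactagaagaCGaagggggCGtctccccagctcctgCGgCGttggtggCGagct
The Meg3 promoter holds 13 CpG, and the Nnat and Blcap promoters 17 each, where the median over 32851 mouse promoters of this length was 7. A second Meg3 promoter, which starts further into the gene, holds 1. None of the 3 holds the fixed bases of the CTCF core, which were found in 8.55% of all promoters and in 2 of the 48 that matched 33 members.

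**Figure D3:**
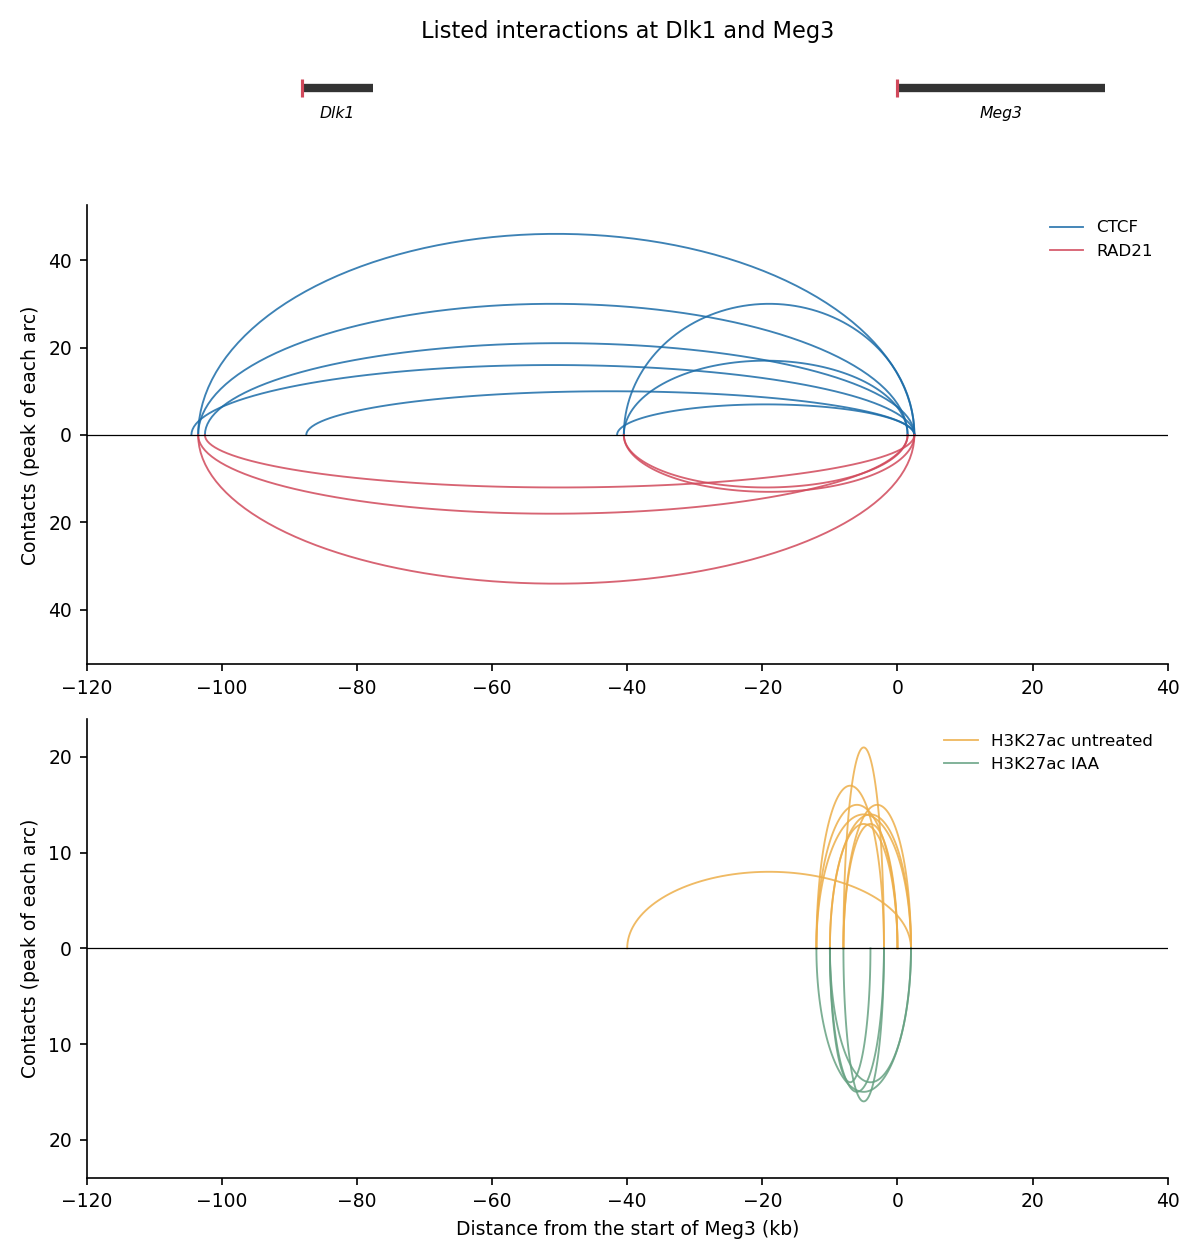
Interactions of Dlk1 and Meg3 by distance from the start of Meg3 (x axis, kb), drawn as arcs that peak at their contact count (y axis), CTCF up and RAD21 down in the upper panel and H3K27ac untreated up and after IAA down in the lower. The tallest CTCF and RAD21 arcs, 46 and 34 contacts, start beyond Dlk1, and 9 of the H3K27ac arcs drawn above the line end at Meg3, with 5 below it.

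Grb10, which encodes an adapter protein that dampens insulin and growth factor signalling, had the strongest contact of any member. An intron of the neighbouring Ddc gene at chr11:11820001-11821000 and an intron of Grb10 at chr11:11973001-11974000, 153 kb apart, had 289 CTCF contacts (5.46 predicted) and 174 RAD21 contacts (3.78 predicted). The same Grb10 bin had 96 and 74 contacts with chr11:11812001-11813000, 71 and 49 with chr11:11809001-11810000 beside Fignl1, and 67 and 33 with an intron of Fignl1. It took part in 20 of the 43 CTCF interactions of the gene, and in 17 of them the partner lay to the left, towards Ddc and Fignl1.

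The H3K27ac contacts of Grb10 covered the same span without IAA. Of 45 interactions, the strongest joined the Fignl1 start at chr11:11808001-11810000 with the 2 kb bin over the CTCF anchor, chr11:11972001-11974000, by 40 contacts where 1.32 were predicted. That pair was not in the IAA list, nor was any pair within 1 bin of it. This was the only member pair of 40 or more contacts that was not listed again at the same bins, where 93.2% of such pairs over the whole list were. The bin over the CTCF anchor and the next one, chr11:11974001-11976000, took part in 8 interactions with 145 contacts without IAA and in 0 after it. So 0 of the 8 were listed again, where the share was 42.9% over the whole list and 32.6% for its pairs on a CTCF bin pair. These bins were picked after their values were seen. The 8 pairs share them and are not independent, so no interval is given and the difference was not tested. The other bins of Grb10 took part in 37 with 474 contacts and in 16 with 197. At the other end, the Ddc intron bin chr11:11820001-11822000 had 8 untreated and 0 IAA interactions with Grb10, the next bin 12 and 3, and the Fignl1 start 14 and 8.

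Coverage, the authors' value for each bin, was set against the median of all bins in both H3K27ac lists. The Ddc intron bin had a coverage of 3171 without and 3919 with IAA, log2 0.11 relative to that median. At the Fignl1 start it was 10063 and 10429, log2 -0.15. Inside Grb10, coverage was 1406 and 1136 at chr11:11964001-11966000 and 1396 and 1020 at chr11:11966001-11968000, log2 -0.51 and -0.65 on the same scale. These were the lowest of the 8 Grb10 bins found in both lists, whose median was -0.16 and whose highest value was 0.02. The part of these bins' coverage in the count of interactions was not tested. The coverage of the bin over the CTCF anchor was 932 without IAA and was not given in the IAA list, where the bin is in no listed pair.

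Interactions of Grb10 that were listed in both conditions used other bins. The bins chr11:11942001-11944000 and chr11:11948001-11950000 took part in 6 and 5 interactions without IAA and in 5 and 4 after it, and their contact with each other was 25 without and 22 with IAA, log2 -0.16 (-1.05 to 0.73). The largest fall was the pair of Ddc exon bin chr11:11822001-11824000 and chr11:11942001-11944000, from 23 to 10 contacts, log2 -1.17 (-2.41 to -0.05), with p = 0.035 in the exact binomial test before and 1 after adjustment. The Fignl1 start with chr11:11966001-11968000 had 20 and 10 contacts, log2 -0.97 (-2.23 to 0.19). Of the 11 shared interactions of the gene, 6 were lower and 5 higher, with 179 and 150 contacts in sum.

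Nnat, which encodes the membrane protein neuronatin, lies inside an intron of Blcap, so most anchors belong to both genes. The Blcap start at chr2:157566001-157568000 took part in 23 of the 24 untreated H3K27ac interactions and in all 13 after IAA. Its contact with the Nnat start, 6 kb away, had 41 contacts without and 28 with IAA, log2 -0.52 (-1.27 to 0.21). The strongest distant partner in the untreated list was an intron of Ghrh at chr2:157340001-157342000, 226 kb away, with 21 and 12 contacts, log2 -0.78 (-1.94 to 0.31), and these 2 bins also held a CTCF and a RAD21 pair of 20 contacts each. The largest rise among all shared member interactions was here too, from 11 to 20 contacts between the Blcap start and an intron of Manbal, log2 0.89 (-0.24 to 2.10), which left Manbal with more contacts than Ghrh after IAA. In the CTCF and RAD21 lists the strongest pair was Ghrh with chr2:157571001-157572000 at Blcap, 230 kb apart, with 42 and 43 contacts.

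Peg3, a paternally expressed zinc finger gene, had CTCF contacts that spread from 1 bin in an intron, chr7:6727001-6728000. It was joined with an intron of Zim2 by 28 contacts, with chr7:6359001-6360000, 368 kb away, by 27, and with Zim1 by 19. The RAD21 list had 7 contacts for the 368 kb pair. RAD21 was strongest between Peg3 and an intron of Usp29, a ubiquitin peptidase gene, with 13 contacts over 189 kb. The single shared H3K27ac interaction joined Peg3 with the Zfp78 start, 366 kb away, with 24 contacts without and 13 with IAA, log2 -0.86 (-1.95 to 0.18).

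Commd1, a copper metabolism gene that holds the imprinted retrogene Zrsr1 in an intron, was joined with chr11:22631001-22632000, 326 kb away, by 49 CTCF and 39 RAD21 contacts. Its shared H3K27ac contacts were short and linked the start sites of Zrsr1, Commd1 and Cct4. Zrsr1 with Commd1 had 20 and 18 contacts without and with IAA, Commd1 with Cct4 22 and 25, and Zrsr1 with Cct4 16 and 20. In the untreated list the strongest pair, 32 contacts, lay 1 bin away from the Commd1 start and was not listed again at the same bins. Within 1 bin of it the IAA list had a pair of 25 contacts. That is also the IAA count of Commd1 with Cct4, so this match need not be a separate contact. Zrsr1 was also joined with chr11:22620001-22622000, 352 kb away, by 15 untreated contacts and by 8 IAA contacts within 1 bin.

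Among the clusters without H3K27ac interactions, Gnas, which encodes the stimulatory G protein subunit, had the most CTCF pairs. A bin in its intron, chr2:174311001-174312000, was joined with an intron of Zfp831 at 363 kb by 26 CTCF and 16 RAD21 contacts and with chr2:174932001-174933000 at 621 kb by 22 and 7. Airn, the noncoding RNA known to silence Igf2r, Slc22a2 and Slc22a3 in cis, was joined with the 3′ side of Slc22a3 over 394 kb by 22 and 8 contacts. Igf2r itself had no listed interaction. Magel2, a ubiquitin ligase adapter gene, was joined with chr7:62227001-62228000 over 155 kb by 19 and 10 contacts, Mkrn3 with the Peg12 start by 12 CTCF contacts, and an intron of Mest with chr6:30535001-30536000 by 11. Ndn and Copg2 had none.

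Plagl1, a zinc finger transcription factor gene, was joined with an intron of Phactr2, 342 kb away, by 26 CTCF and 10 RAD21 contacts. Its start and an intron 16 kb away had 15 H3K27ac contacts without and 19 with IAA, log2 0.37 (-0.68 to 1.45). Impact, a regulator of translation, and Sgce, a sarcoglycan gene, had H3K27ac contacts alone within the 5 kb limit. An exon bin of Impact was joined with start sites of Osbpl1a 32 kb and 110 kb away by 25 and 19 contacts without IAA and by 35 and 30 with it, log2 0.51 (-0.27 to 1.32) and 0.69 (-0.19 to 1.60). None of the 4 shared Impact interactions was lower, and their contacts summed to 68 and 91, log2 0.45 (-0.02 to 0.92). The 2 shared Sgce interactions had 26 and 33 contacts in sum. The median coverage of the bins in both lists, on the log2 scale used for Grb10, was 0.31 at Plagl1, 0.29 at Sgce and 0.08 at Impact. The part of coverage in these contacts was not tested. Peg10 had none.

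Across all clusters, 39 of the 124 untreated H3K27ac interactions of members were listed again at the same 2 bins after IAA, or 31.5% (95% Wilson interval 23.9 to 40.1), against 42.9% over the whole list. Within 1 bin the numbers were 68 (54.8%) against 65.7%. Wherever a share within 1 bin is given, the same IAA pair can count for several untreated pairs, so such shares are not numbers of separate contacts kept. Seen from the IAA list, 60% of the 65 member interactions were also in the untreated list, against 55.1% over the whole list, and 26 were in the IAA list only. The 85 that were not listed again made up 68.5%, against 57.1% over the whole list. By cluster, 11 of 45 were listed again at Grb10, 8 of 24 at Nnat and Blcap, 5 of 17 in the Kcnq1 cluster, 3 of 12 at Commd1, 3 of 10 at Meg3, 4 of 7 at Impact, 2 of 4 at Plagl1, 2 of 3 at Sgce and 1 of 2 at Peg3. Within 1 bin the share moved from 24.4% to 51.1% at Grb10 and from 25% to 58.3% at Commd1, and at a q-value limit of 0.01 from 33.3% to 53.3% at Nnat and Blcap, where the whole list moved from 42.9% to 44.8%. In the Kcnq1 cluster it was 29.4% at the same bins and 35.3% within 1 bin. Without Grb10, which holds the most, 28 of 79 (35.4%) were listed again. Among the 26 interactions with both bins in members the share was 50% (13), beside 42.9% of the whole list. Of these 26, 6 joined 2 different members with no member at both ends. No interval was computed for this small set, so nothing is read from the difference.

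The share listed again was higher for pairs with more contacts. Members had a median of 11 contacts against 13 over the untreated list, and the part of this in their share was not tested. With 6 to 9 contacts, 2 of 39 member interactions were listed again (5.13%, against 14.7% over the whole list). In the next ranges the shares lay near those of the whole list. They were 31.1% of 45 with 10 to 14 contacts against 30.9%, 53.1% of 32 with 15 to 24 contacts against 55.3% and 4 of 5 with 25 to 39 contacts against 78.5%. Only 3 member interactions had 40 contacts or more, and 2 of them were listed again.

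Some H3K27ac interactions lay on a bin pair of the CTCF list. This was so for 15 of the 124 member interactions, or 12.1%, against 6.23% over the whole list. After IAA, 3 of the 15 were listed again (20%, 95% Wilson interval 7.05 to 45.2), against 32.6% of the 2260 such interactions of the whole list. Of the other 109, 36 were listed again (33.0%, 24.9 to 42.3), against 42.9% of all untreated pairs, on a CTCF bin pair or not. The 15 included 5 of Grb10 and 5 of the Kcnq1 cluster, none of which was listed again.

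Contacts of the 39 shared member interactions summed to 696 without and 630 with IAA, log2 -0.11 (-0.27 to 0.04) relative to all shared interactions. Their median log2 ratio was 0.03, which is the value of equal counts, as over all 15551 shared interactions, with a range from -1.17 to 0.89, and 18 of the 39 (46.2%) lay below 0, against 46.2% over all. Of the 39, 0 passed an adjusted p of 0.05 (exact binomial test, two-sided, adjusted after Benjamini-Hochberg), against 0.135% of all, of which 0.0965% were higher and 0.0386% lower. The smallest adjusted p among the 39 was 0.944. At an unadjusted p under 0.05, 2 were lower (2.43% of all) and 0 higher (1.98% of all). The test compares 2 pooled sets of libraries, not the conditions.

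**Figure D4:**
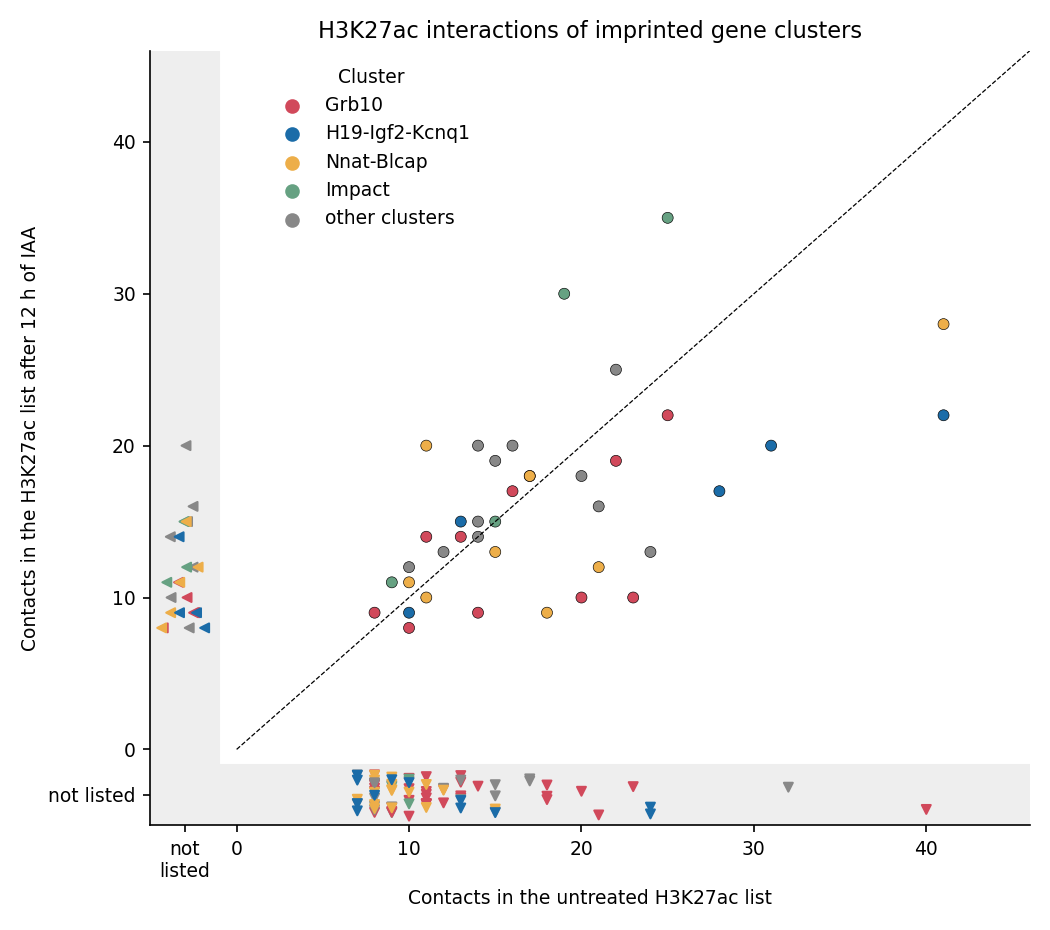
Contacts of each H3K27ac interaction of the members without IAA (x axis) and after 12 h of IAA (y axis), 1 point per pair of bins, coloured by cluster, with the dashed line at equal counts. Points in the grey bands (85 below, 26 at the left) were in 1 list only and are spread within the band for legibility, and the 39 shared pairs lie on both sides of the line.

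Lists of other genes were counted by the same rule. A list of 42 other imprinted genes, such as Ddc, Trpm5 and Osbpl5, had 228 CTCF, 111 RAD21, 196 untreated H3K27ac and 137 IAA H3K27ac interactions, spread over 23, 18, 15 and 15 genes. Of the 196, 75 were listed again (38.3%, 31.7 to 45.2), and 0 shared interactions passed the test. Ddc, which encodes an aromatic amino acid decarboxylase, alone had 98 of the 196 and 44 of the 75. A list of 9 factors that set or maintain imprints, among them Zfp57, Trim28, Dnmt1, Uhrf1 and Dnmt3a, had 179 untreated and 174 IAA H3K27ac interactions. They were spread over 6 genes in each H3K27ac list. Of the untreated, 99 (55.3%) were listed again. Trim28 had 77 of the 179 and 34 of the 99, and Zfp57 had 69 and 50. Among the 5 pluripotency genes the share was 185 of 309 (59.9%), and 1 shared interaction passed the test. Over the whole untreated list 42.9% were listed again, and 0.135% of all shared interactions passed the test. An interaction that joins a member with a gene of this list, such as Grb10 with Ddc, or whose bin touches both, such as Tssc4 and Trpm5, counts in both lists, so the lists are not independent.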

How the data were processed

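The members and the gene lists were chosen with earlier results of these data known. Each list has the column layout of FitHiChIP, and per the labels 1 list serves all replicates of a group. Per the submitters' processing notes, Trim Galore, BWA, MACS2 and deepTools were used on mm10. The caller's settings are not given in the sources used here. The authors deposited, without normalization, a whole-number contact count for each pair, beside the coverage of each bin, a contact number predicted by their model, and a p-value and q-value. No deposited q-value reached 0.05. Bins were 1 kb for CTCF and RAD21 and 2 kb for H3K27ac. The median pair had 13 to 14 contacts. The models rested on 2839756 (CTCF), 1517698 (RAD21), 12551236 (untreated H3K27ac) and 14629323 (IAA H3K27ac) contacts, taken as the predicted number over its probability.

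Python 3.11.15 with scipy 1.17.1 and pandas 2.3.3 assigned bins to GENCODE M21 genes on GRCm38, the genome that mm10 names. Coordinates count from 1. Shared pairs have identical bins in both H3K27ac lists. An exact binomial test compared their contacts, with the expected split from the totals over all 15551 shared pairs (IAA over untreated, 0.980). P-values were adjusted over all of them after Benjamini-Hochberg. Intervals are 95% Wilson intervals for shares and exact binomial intervals for log2 ratios. Without molecular identifiers, reads are not independent molecules. The pairs named are, per cluster, those with the most contacts in a list, those that join 2 members, and the largest rise and fall among shared pairs with at least 20 contacts over both lists. A few others were named after their values were seen.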

Additional observations from a re-analysis of the deposited data

How the results depend on the processing

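The share of untreated H3K27ac interactions listed again, 31.5%, was 54.8% when each anchor could differ by 1 bin (65.7% over the whole list). It was 50% of 26 when both bins had to lie in members, above the 42.9% of the whole list instead of below. That set is small and was given no interval, so no reversal is read from it. It stayed within its counting interval at a q-value limit of 0.01 (37.3%, whole list 44.8%), with at least 10 contacts (38.8%, whole list 46.9%), with a 20 kb extension (32.6%), with no extension (31.9%) and, both chosen after seeing the data, without Grb10 (35.4%) and at 1 p-value limit for both lists (33.0%, whole list 45.1%). Scaling by the authors' model contacts instead of shared totals moved the median log2 ratio of shared member interactions from 0.03 to -0.22, by the same amount as for all interactions, put 30 of 39 below 0 and turned the Commd1 to Cct4 ratio from 0.21 to -0.037. Relative to all interactions the median was then unchanged. Division by anchor coverage gave -0.09 (all, -0.17). The count of changed interactions was 0 under every alternative run. At an unadjusted p under 0.05 in the exact binomial test, it was 8 of 39 under model scaling. That scaling moves all pairs by the same amount, and the share over all shared pairs was not counted for it, so nothing is read from the 8. Without the H19-Igf2-Kcnq1 cluster, 171 CTCF and 76 RAD21 interactions remained, fewer by construction. No paired analysis was possible because each list is pooled over its replicates and carries no replicate number. For that reason no replicate could be left out in turn. The smallest count in the H3K27ac lists was 6, and how far depth sets which weak pairs are listed was not tested.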
